A study of Mus musculus with 6 samples.

Results

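The 7 RNAs described here are 5 structural noncoding RNAs, Rn7s1, Rn7s2, Rn7sk, Rmrp and Rpph1, and 2 nuclear long noncoding RNAs, Malat1 and Neat1. They were chosen by name, with their values in these libraries already known, and were found by gene identifier among the 23808 genes of the table. All 7 had a mean of at least 1 FPKM (fragment counts divided by gene length and by library size), the level above which 11456 genes were tested. Hearts came from wild-type female mice on normal chow (NC) or a high-fat diet (HFD) from 4 to 12 weeks of age, with 3 libraries per diet. The labels name Trizol for isolating total RNA and a VAHTS mRNA-seq kit for the libraries. In bulk heart RNA, fewer cells of a type and less RNA per cell cannot be told apart. The labels do not tie the libraries of a diet to separate animals, and any p-value here rests on the spread between libraries, part or all of which may be technical.

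Rn7s1 and Rn7s2 encode 7SL, the RNA core of the signal recognition particle, which docks ribosomes making secreted and membrane proteins at the endoplasmic reticulum. Rn7sk encodes 7SK, which holds the elongation kinase P-TEFb inactive together with Hexim, Larp7 and Mepce proteins. Rmrp and Rpph1 are the catalytic RNAs of RNase MRP, which cleaves precursor ribosomal RNA, and of RNase P, which trims the 5′ end of precursor tRNAs and also cuts the 3′ end of Malat1. These structural RNAs are products of RNA polymerase III and carry no long poly(A) tail. Malat1, found in nuclear speckles, and Neat1, the scaffold of paraspeckles, are made by RNA polymerase II. Whether Malat1 and Neat1 carried a tail in these hearts was not tested.

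The sequences below show how long the runs of A are inside 5 of the RNAs, since mRNA libraries are commonly made from RNA captured by its A tail. They were read from GENCODE transcripts of the mouse build mm10 (GRCm38). Each is given as the first of its longest runs of A with up to 20 bases on each side, written 5′ to 3′ with the run in capitals.

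Rn7sk: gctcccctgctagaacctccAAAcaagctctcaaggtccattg
Rmrp: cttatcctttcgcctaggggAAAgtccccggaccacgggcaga
Rpph1: ggcggaggAAgctcatcagcggggccacgt
Malat1: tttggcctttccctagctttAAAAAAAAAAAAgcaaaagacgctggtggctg
Neat1: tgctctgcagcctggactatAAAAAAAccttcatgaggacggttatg

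Rn7s1 (chr12:69159295-69159594, plus strand) and Rn7s2 (chr12:69361182-69361481, minus strand) were identical over all 300 bases, so that reads of the pair cannot be told apart. Each other pair of the structural RNAs shared 47.3 to 51.5% of aligned positions. Rn7sk lies at chr9:78175303-78175633, Rmrp at chr4:43492788-43493058 and Rpph1 at chr14:50807449-50807767, all on the minus strand. Malat1 (chr19:5795690-5802672) and Neat1 (chr19:5824708-5845478) are neighbours on the minus strand of chromosome 19. The longest run of A had 4 bases in 7SL, 3 in Rn7sk and Rmrp, and 2 in Rpph1. In transcripts within 20% of the same length, a run at least as long was found in 68.2% for 7SL and in 96.0 to 100% for the others. Malat1, in its transcript of 6983 bases, held a run of 12 A at positions 6674 to 6685, and 18.7% of 3815 transcripts of like length held one as long. The longest run of Neat1 had 7 A, at positions 9539 to 9545 of 20771, and 82.0% of 61 transcripts of like length held one as long. Only the transcript strand was searched, and the runs describe the sequences alone.

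All 5 structural RNAs had higher mean FPKM on HFD, by 1.94-fold for Rn7sk to 3.26-fold for Rmrp, while the highest library of a diet was 3.14 to 11.4 times its lowest. These differences changed with single libraries. Without HFD 3 the log2 fold changes were 0.30 for Rn7s1, 0.25 for Rn7s2, −0.20 for Rn7sk, 0.36 for Rmrp and 0.70 for Rpph1. Over the 5 RNAs they ran from 0.25 to 1.24 without NC 1, from 0.43 to 1.19 without NC 2, from 1.11 to 2.02 without NC 3 and from 1.39 to 2.21 without HFD 1. Their order over libraries was alike. HFD 3 was highest for all 5, NC 3 and HFD 2 came next in either order, and NC 1, NC 2 and HFD 1 were the lower 3 libraries. In limma 0 of 11456 genes (0%) passed an adjusted p of 0.05, so none of the 7 RNAs did, whereas 415 genes (3.62%), none of the 7 among them, had an unadjusted p under 0.05. In none of the 7 did the libraries of the diets separate, compared with 931 of the tested genes (8.13%). Since the RNAs were chosen on these values, their differences are given as a description.

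The 7SL gene Rn7s1 measured 85.6, 59.9 and 345 FPKM in the NC libraries, compared with 69.8, 320 and 652 FPKM on HFD, where such values are always given in the order of replicates 1 to 3. HFD 1 thus lay below NC 1, NC 3 lay above HFD 2, and the diets overlapped. The NC mean of 164 ± 158 FPKM and the HFD mean of 347 ± 292 FPKM (each ± SD, n = 3) gave a log2 fold change of 1.01 (SE 0.72; 0.30 without HFD 3) on the log2(FPKM + 1) scale used for all fold changes here. Every SE here is limma's, which draws a gene's spread toward that of genes at a similar level. For each of the 7 RNAs it is smaller than the gene's own spread would give (within-diet SD 1.49 for Rn7s1). The highest library of Rn7s1 was 5.77 times the lowest on NC and 9.35 times on HFD. The identical gene Rn7s2 measured 105, 74.9 and 428 FPKM in the NC libraries, compared with 81.5, 388 and 738 FPKM on HFD (log2 fold change 0.93, SE 0.72, and 0.25 without HFD 3). The ratio of Rn7s2 to Rn7s1 stayed between 1.13 and 1.25 in the 6 libraries. Reads of the identical pair cannot be told apart, so how they were divided between these genes is uncertain.

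Rn7sk, the RNA of the P-TEFb inhibitory particle, measured 25.7, 34.0 and 86.9 FPKM in the NC libraries, compared with 21.0, 64.3 and 199 FPKM on HFD. HFD 1 was the lowest of the 6 libraries and HFD 3 the highest, 9.48 times higher. The log2 fold change was 0.60 (SE 0.63), and without HFD 3 it was −0.20. Rn7sk has annotated copies elsewhere in the genome. Gm24447, identical to it over 241 bases, measured 0.797, 0.615 and 3.85 FPKM in the NC libraries, compared with 0.843, 2.84 and 6.28 FPKM on HFD, and Gm26315, 99.6% identical over 238 bases, reached 4.87 FPKM in HFD 3. Reads shared by such copies could have been split between them, and the levels of all 3 genes are uncertain to that extent.

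The catalytic RNAs spanned 14.0-fold (Rmrp) and 17.3-fold (Rpph1) over the 6 libraries. Rmrp, the RNA of RNase MRP, measured 3.61, 7.21 and 11.4 FPKM in the NC libraries, compared with 4.43, 17.3 and 50.6 FPKM on HFD (log2 fold change 1.15, SE 0.62, and 0.36 without HFD 3). HFD 3 stood highest, followed by HFD 2, and HFD 1 lay within the NC range. Rpph1, the RNA of RNase P, measured 9.04, 3.76 and 28.7 FPKM in the NC libraries, compared with 7.05, 40.2 and 64.9 FPKM on HFD (log2 fold change 1.32, SE 0.71, and 0.70 without HFD 3). Its span was the widest of the 7 RNAs, with NC 2 at the bottom and HFD 1 below NC 1. Ccdc107, a protein-coding gene that shares 124 bases with Rmrp on the opposite strand, was between 19.7 and 34.1 FPKM and did not have the same order. The whole of Rmrp lies in the span of that gene. Rpph1 lies in the span of Ccnb1ip1, whose exons overlap it on the same strand and which had no values here. Another gene annotated as Rmrp overlaps Rmrp on the same strand and had no values either. The sources used here do not say whether counting used strand, so reads from the overlap with Ccdc107 cannot be told apart. Strand would not separate reads from the same-strand overlaps.

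**Figure D1:**
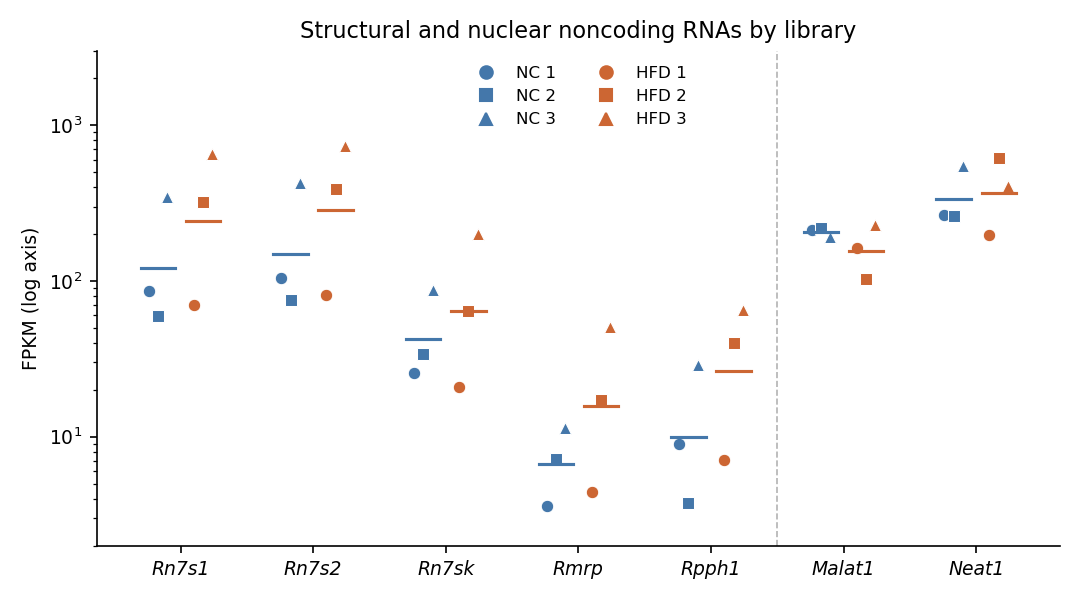
FPKM of the 7 RNAs (log axis) in the 6 libraries, with NC in blue, HFD in orange, a marker shape per replicate number and the geometric mean of each diet as a bar. For the 5 structural RNAs left of the dashed line, HFD 1 sits with NC 1 and NC 2, and HFD 3 is highest, as for Rn7s1 at 652 FPKM.

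Malat1 did not have this order of libraries, and Neat1 had the same 3 libraries on top but in a narrower range, 3.14-fold over all 6 libraries against 2.22-fold for Malat1. Malat1 measured 212, 219 and 191 FPKM in the NC libraries, compared with 162, 103 and 229 FPKM on HFD, a log2 fold change of −0.40 (SE 0.27). HFD 1 and HFD 2 were below every NC library, but HFD 3 was the highest of the 6. Without HFD 3 the log2 fold change was −0.67, and without HFD 2 it was −0.10. Neat1 measured 266, 260 and 544 FPKM in the NC libraries, compared with 197, 619 and 404 FPKM on HFD, a log2 fold change of 0.13 (SE 0.39). HFD 2 was highest for Neat1 and lowest for Malat1, so that the ratio of Neat1 to Malat1 was 5.99 in HFD 2, and at most 2.85 in the other 5 libraries. The sign of the Neat1 difference turned when NC 1 (−0.03), NC 2 (−0.05) or HFD 2 (−0.25) was left out. It was 0.48 without NC 3, 0.58 without HFD 1 and 0.06 without HFD 3.

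Gm37376, annotated on the strand opposite Malat1, measured 10.5, 9.78 and 34.4 FPKM in the NC libraries, compared with 9.44, 15.9 and 23.3 FPKM on HFD. It was highest in NC 3, whereas Malat1 was highest in HFD 3. Where Malat1 and Neat1 both exceeded 100 FPKM in every library, Rn7s1 and Rn7s2 did so in 3 and 4 of 6, while Rmrp and Rpph1 stayed below 65 FPKM in all. By mean FPKM, a scale per length, Neat1 ranked 167 of 11456 tested genes, Rn7s2 209, Rn7s1 244, Malat1 313, Rn7sk 641, Rpph1 1698 and Rmrp 2635. Neighbours in that order overlapped over the libraries.

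The spread between libraries of a diet placed the structural RNAs among the most variable genes. The within-diet SD on the log2 scale was 1.49 for Rn7s1 (rank 32 of 11456), 1.48 for Rn7s2 (33), 1.47 for Rpph1 (40), 1.29 for Rn7sk (54) and 1.26 for Rmrp (58). It was 0.73 for Neat1 (rank 244) and 0.41 for Malat1 (rank 2123). The mean log2 level of the structural RNAs was 5.21 ± 1.06 on NC and 6.21 ± 1.60 on HFD (SD, n = 3 each). The difference between these means was 0.28 without HFD 3, 0.65 without NC 2, 1.61 without NC 3 and 1.87 without HFD 1. Counting the identical 7SL pair once gave 1.01. The mean of Malat1 and Neat1 differed by −0.13 between the diets.

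**Figure D2:**
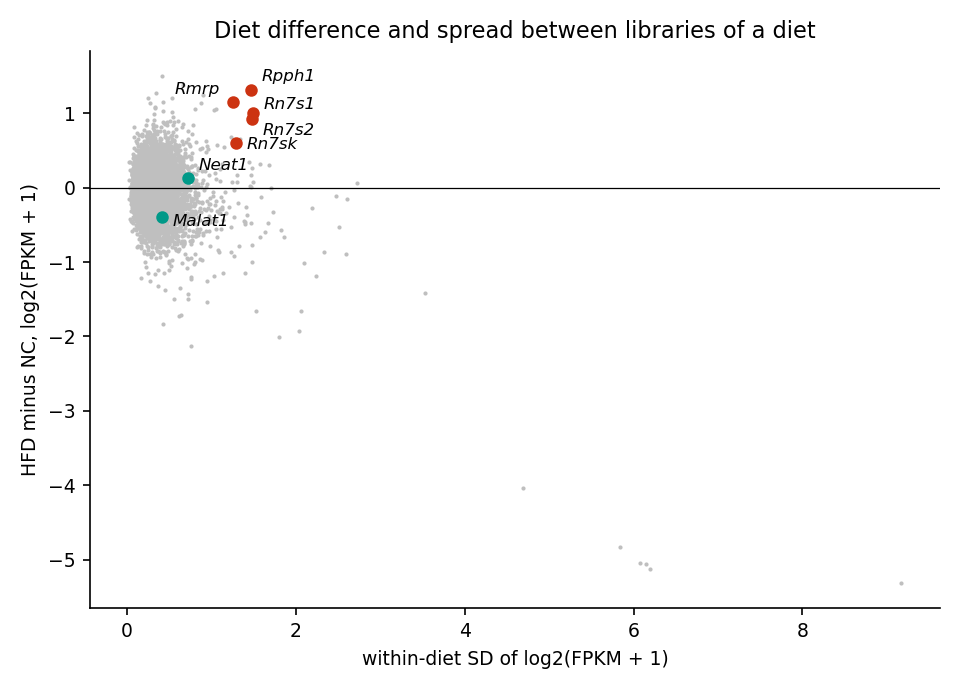
Difference between diets, HFD minus NC, against the within-diet SD, both in log2(FPKM + 1), for the 11456 tested genes (grey), the structural RNAs (red) and Malat1 and Neat1 (green). The structural RNAs lie at an SD of 1.26 to 1.49 with positive differences of 0.60 to 1.32, and the grey points at the far lower right include mitochondrial genes listed at 0 in HFD 1.

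Genes that follow the structural RNAs over the 6 libraries were ranked by the root mean square difference of their log2 profiles, each centred on its own mean. Predicted genes, among them Gm42418 with a like profile, and Riken clones were left out of the ranking. Nearest to Rn7s1 outside the 7 were CT010467.1, annotated as ribosomal RNA (0.40), Lars2, the mitochondrial leucyl-tRNA synthetase gene (0.41), AY036118 (0.49), Podn (0.64) and Scarna2, a small Cajal body RNA (0.67). Among the 7, Rn7s2 lay at 0.05, Rpph1 at 0.25, Rn7sk at 0.45 and Rmrp at 0.59, whereas Neat1 lay at 0.90 and Malat1 at 1.42. Near Malat1 were Kyat3 (0.056), Hopx (0.073), Atpaf1 (0.080) and Rap1gap2 (0.086). The nearest to Neat1 were Clasrp (0.058), Slc4a3 (0.060), Safb2 (0.080), Mapk1ip1 (0.082) and Ppox (0.082). Profiles of 6 shared libraries carry their common scaling, and such a ranking always has a nearest gene.

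CT010467.1 (chr17:39846353-39848827, minus strand) measured 998, 954 and 4546 FPKM in the NC libraries, compared with 532, 2333 and 6673 FPKM on HFD. HFD 3 and NC 3 were its highest libraries and HFD 1 its lowest, and the diets overlapped (log2 fold change 0.31, SE 0.76). Gm42418 and AY036118, which share sequence with CT010467.1 at the same locus, were at 967 FPKM or more in the same 3 libraries, NC 3, HFD 2 and HFD 3, and at 556 FPKM or less in the other 3. Lars2 measured 20.4, 19.5 and 101 FPKM in the NC libraries, compared with 14.3, 43.4 and 132 FPKM on HFD. The mitochondrial ribosomal RNAs had no such range. The highest library was 1.43 times the lowest for mt-Rnr1, between 3004 and 4308 FPKM, and mt-Rnr2 lay between 3477 and 4565 FPKM. How far ribosomal RNA in a library bears on the structural RNAs was not tested.

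**Figure D3:**
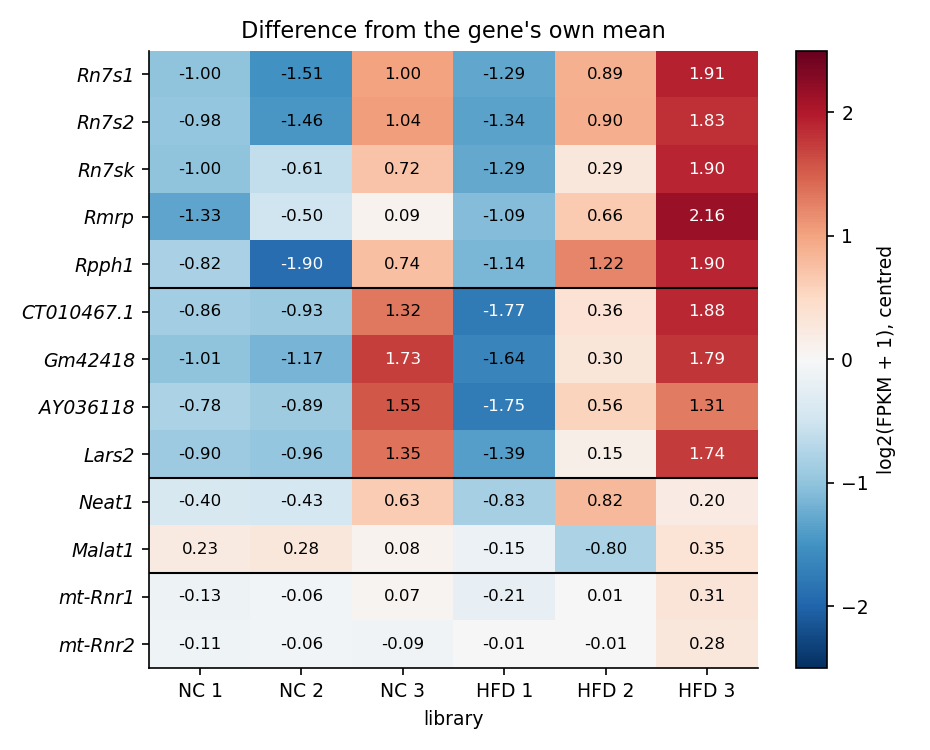
Difference of each library from the gene's own mean in log2(FPKM + 1), red above and blue below, for the structural RNAs, 4 genes with a like profile, Neat1 and Malat1, and the mitochondrial ribosomal RNAs. The upper 2 blocks share values above the mean in NC 3, HFD 2 and HFD 3 (0.72, 0.29 and 1.90 for Rn7sk), which Malat1 does not, and the mitochondrial RNAs stay between −0.21 and 0.31.

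Set against the ribosomal RNA gene, a ratio chosen after the values had been seen, part of the structural RNAs separated by diet. Rn7s1 relative to CT010467.1 was 0.0858, 0.0628 and 0.0760 on NC and 0.131, 0.137 and 0.0978 on HFD, so that every HFD library lay above every NC library. Rn7s2 and Rpph1 also separated, with mean ratios 1.55 and 2.08 times higher on HFD. The ratios of Rn7sk, Rmrp, Malat1 and Neat1 overlapped between the diets. The same separation upward was found for 5 of 11456 genes (0.0436%), namely these 3 RNAs, the 7SK copy Gm24447 and Zbtb16, and nothing further is read from it. CT010467.1 itself spanned 4.77-fold on NC and 12.5-fold on HFD. Few genes without a like profile can separate after division by it, so the share is low by construction. Rn7s1 and Rn7s2, identical in sequence, are not separate cases. Such a ratio shows unequal change and not which of its members differed. On log2 ratios taken without a pseudocount, the mean of the structural RNAs was 0.73, 0.74 and 0.70 higher on HFD relative to CT010467.1, Gm42418 and Lars2, with within-diet SDs of 0.20, 0.39 and 0.26. These 3 denominators have profiles like those of the structural RNAs, and dividing by a gene of like profile narrows the spread by construction, so the SDs are given as a description.

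**Figure D4:**
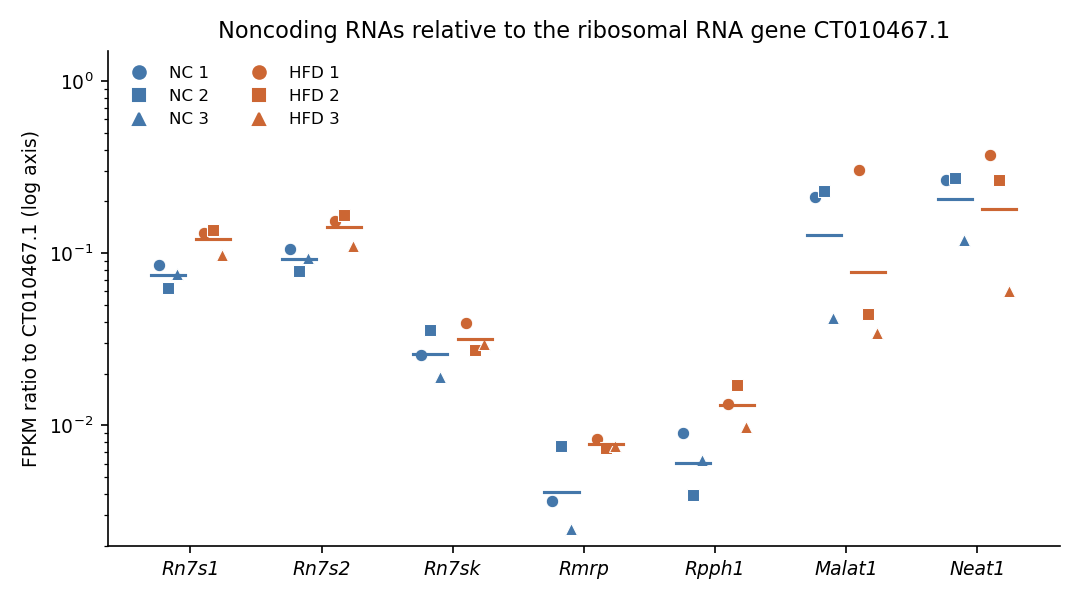
FPKM of each RNA divided by that of CT010467.1 (log axis) in each library, with the geometric mean of each diet as a bar. Rn7s1, Rn7s2 and Rpph1 have all 3 HFD libraries above all 3 NC libraries (0.0978 to 0.137 against 0.0628 to 0.0858 for Rn7s1), and the other 4 RNAs overlap.

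Markers of cell types differed between libraries as well. Of 10 atrial markers, all were measured and tested, and their summed level ran from 456 to 14135 FPKM on NC and from 570 to 7290 FPKM on HFD, highest in NC 3 and HFD 3 but low in HFD 2, where Rn7s1 was at 320 FPKM. Nppa alone made up 9404 FPKM of the sum in NC 3 and 4185 FPKM in HFD 3. Clec3b, of the same list, did not follow the sum and was lowest in HFD 3, at 72.0 FPKM. Bmp10, a defining atrial gene, was listed at 0 in HFD 1 and was at 0.017 FPKM in NC 2 and 0.064 FPKM in HFD 2. Myl7, the atrial myosin light chain gene, was at 293 FPKM in HFD 1, between 36.2 FPKM in NC 2 and 638 FPKM in NC 1, and at 93.9 FPKM in HFD 2. The sum of 6 erythroid markers was lowest in NC 3 and HFD 3, at 2025 and 1241 FPKM, and reached 13372 FPKM in HFD 2. The ventricular cardiomyocyte markers, all 10 of them tested, summed to 31933 to 46468 FPKM, the highest sum of the marker lists, and 9 of the 10 were lower on HFD (median log2 fold change −0.24, but 0.06 after quantile normalization). Of 6 adipocyte markers 5 were tested, and all 5 were lower on HFD (median −0.57). The sum of the 6 ran from 3.74 to 67.2 FPKM on NC and from 1.11 to 55.7 FPKM on HFD. All 6 macrophage markers were lower on HFD (median −0.54). Of these, 4 had an unadjusted limma p under 0.05 and 3 had no overlap of the diets, beside 3.62% and 8.13% of all tested genes. Of 6 fibroblast markers 5 were lower (median −0.43), and all 6 endothelial markers were higher (median 0.16). No marker of these lists passed limma's adjusted threshold (adjusted p = 0.9998 for each list's smallest). The structural RNAs made up 0.0259 to 0.125% of the summed FPKM on NC and 0.0319 to 0.241% on HFD. HFD 1 had the lowest summed FPKM, 576334 against 687877 to 739406 in the others. It listed 6146 genes at 0, against 5195 to 5815 in the others. Those at 0 in HFD 1 only included the mitochondrial mt-Co2, mt-Nd4, mt-Cytb and mt-Nd4l and the predicted gene Gm28661. Bmp10 and the adipocyte marker Retn were among them too. The part of these features in the levels of the structural RNAs was not tested.

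The 6 lists of genes for proteins that bind or make these RNAs had median log2 fold changes of −0.16 to 0.12, and single genes reached −0.61. In none of these lists did a gene pass limma's adjusted threshold. Of 9 genes of the signal recognition particle and its receptor 3 were higher and 6 lower on HFD (median log2 fold change −0.09, or 0.02 after scaling to TPM), beside 5373 higher and 6083 lower with a median of −0.02 over all tested genes. Srp68 had the smallest unadjusted p, with 19.6, 16.6 and 17.3 FPKM in the NC libraries, compared with 12.1, 13.5 and 17.0 FPKM on HFD (log2 fold change −0.32, SE 0.21), followed by the Alu domain protein gene Srp14 (−0.17) and by Srp19 (−0.17), which binds 7SL directly. Of 9 genes of the 7SK particle and P-TEFb 6 were higher and 3 lower (median 0.02). The P-TEFb inhibitor genes Hexim1 and Hexim2 had log2 fold changes of −0.13 and −0.34, and Mepce, which caps 7SK, had 0.20.

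Of 10 tested protein genes shared by or specific to RNase P and RNase MRP, 9 were lower on HFD and 1 higher (median −0.16). Pop7 measured 10.7, 9.25 and 15.4 FPKM in the NC libraries, compared with 6.43, 8.48 and 6.94 FPKM on HFD, so that the diets did not overlap (log2 fold change −0.61, SE 0.24, limma unadjusted p = 0.0258, adjusted p = 0.9998). Pop4 (−0.40) and Rpp40 (−0.32) also had every HFD library below every NC library, as 559 genes did (4.88%). In the same libraries the RNAs themselves, Rmrp and Rpph1, had differences of 1.15 and 1.32. Of 27 genes of RNA polymerase III and its factors 11 were higher and 16 lower (median −0.04, or 0.07 after scaling to TPM). The 3 with the smallest p were Snapc2, of the complex that recruits the polymerase to 7SK-type promoters (−0.40), Gtf3a, the 5S gene factor TFIIIA (−0.26), and Brf2 (0.33).

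Of 22 paraspeckle protein genes 12 were higher and 10 lower (median 0.01). Sfpq, a core protein bound to Neat1, measured 29.3, 28.8 and 26.4 FPKM in the NC libraries, compared with 20.8, 25.1 and 25.0 FPKM on HFD (log2 fold change −0.25, SE 0.20). Every HFD library of Sfpq lay below every NC library, as in 559 genes (4.88%), whereas the diets overlapped for Pspc1 (−0.27) and Cpsf7 (0.34). Of 20 genes of nuclear speckles and SR splicing proteins, where Malat1 resides, 14 were higher and 6 lower (median 0.12). Son, a speckle core protein gene, had a log2 fold change of 0.44 (SE 0.29), Srrm1 of 0.35 and Srsf1 of 0.33, with every HFD library of Srsf1 (38.2, 43.6 and 51.1 FPKM) above every NC library (37.8, 32.4 and 34.7 FPKM), as in 372 genes (3.25%). None of these genes passed the test (limma adjusted p = 0.9998 for each list's smallest).

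**Figure D5:**
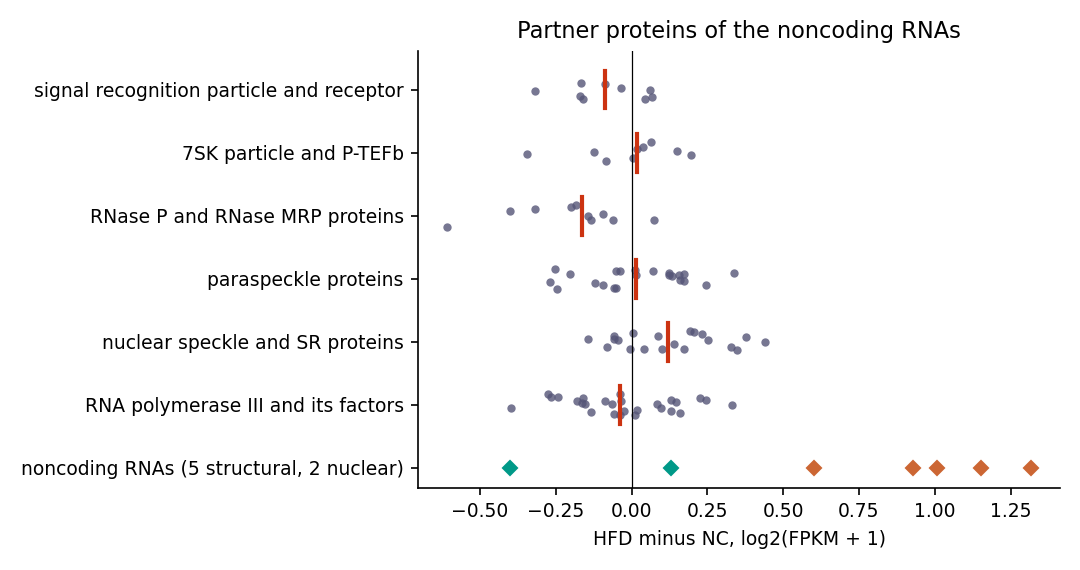
Difference between diets, HFD minus NC in log2(FPKM + 1), of each tested partner gene (points, with the list median as a red line) and of the 7 RNAs (orange for structural, green for Malat1 and Neat1). Medians of the 6 lists lie between −0.16 and 0.12, and the structural RNAs between 0.60 and 1.32.

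Protein-coding genes next to the RNAs did not share their range. Rps29, a small ribosomal subunit protein gene that lies 108 bases from Rn7s1, measured 383, 336 and 390 FPKM in the NC libraries, compared with 278, 487 and 265 FPKM on HFD, with HFD 3 lowest where Rn7s1 was highest. Parp2, which starts 73 bases from Rpph1 on the other strand, stayed between 4.11 and 6.27 FPKM. Ick and Gsta4, on either side of Rn7sk, had log2 fold changes of 0.31 and −0.21. Gsta4 had every HFD library below every NC library, as 559 of the tested genes did (4.88%). Nemf beside Rn7s2, Ttc5 beside Rpph1, and Frmd8 beside Neat1 lay between 0.01 and 0.07. Lrr1, Gm9887, Sit1 and Arhgef39 had means under 1 FPKM and were not tested.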

How the data were processed

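Per the labels, heart total RNA of 3 NC and 3 HFD libraries was sequenced. The authors deposited FPKM per gene and library. The sources used here do not give the program, the depth or the use of strand. Per the submitters' processing notes, the tools were HISAT2 2.2.1, FastQC 0.11.9, HTSeq 0.13.5, DESeq2 1.18.1, Trimmomatic 0.38 and R 3.4.1, with the build mm10 and no roles given. Symbols matched 23718 of 23808 identifiers. Steps of single reads were not found (2.50 to 5.32% of ratios to NC 1 under 0.3 FPKM lay within 0.02, log2, of the commonest ratio), so no count test or counting interval is given.

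From the FPKM, log2(FPKM + 1) was computed, which understates changes of low genes. The 11456 genes whose mean reached 1 FPKM were tested between diets in R 4.3.3 with limma 3.58.1 (eBayes with trend, two-sided, Benjamini-Hochberg over these genes, threshold 0.05), first tested on simulated data. Lists are described by counts and medians. Named were the 7 RNAs, the up to 3 genes of each list with the smallest unadjusted p, the nearest protein-coding neighbours, and the 5 likest profiles, leaving out predicted genes and Riken clones. Of the items these rules took, 2 genes and 1 sequence are not reported here. Copies were sought with BLAST 2.17.0 (at least 90% identity over 100 bases) among GENCODE transcripts; pairs were aligned with Biopython 1.88. The RNAs and lists were chosen with earlier results of these data known. Alternatives were other pseudocounts, filters and scalings, eBayes without trend, a replicate block and each library left out; ratios to other genes, the 7SL pair counted once and a block fit without eBayes were added after seeing the data. Python 3.11.15 with matplotlib 3.10.9 drew the figures.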

Additional observations from a re-analysis of the deposited data

How the results depend on the processing

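The depth is unknown, and 3 libraries per diet limit the precision. The count of genes past the adjusted threshold in limma, 0 of 11456 (415 at an unadjusted p of 0.05), ranged from 0 to 1 when each library was left out, and was 73 with the replicate number as a block. That blocked fit kept 2 residual degrees of freedom, and eBayes gave each gene the trend value of its spread, 0.310 (log2) for Rn7s1 against 0.952 of its own. Rn7s1, Rn7s2, Rmrp and Rpph1 were among its calls (limma adjusted p = 0.0144, 0.0404, 0.00487 and 3.46e-04). With each gene's own spread in the block 2 genes passed, and the 4 RNAs had unadjusted p of 0.160 to 0.360. Same-numbered libraries correlated at 0.193, 0.0864 and 0.275 in their deviations from the diet means, and libraries of different numbers at −0.361 to 0.251. NC 2 correlated more with HFD 1 (0.251), and HFD 2 slightly more with NC 3 (0.0927). The 3 deviations of a diet sum to 0, so these values cannot decide whether the numbers pair the libraries. Leaving out each library gave log2 fold changes of 0.30 to 1.90 for Rn7s1, 0.25 to 1.83 for Rn7s2, −0.20 to 1.39 for Rn7sk, 0.36 to 1.99 for Rmrp, 0.70 to 2.21 for Rpph1, −0.67 to −0.10 for Malat1 and −0.25 to 0.58 for Neat1. It gave 0.28 to 1.87 for the mean of the structural RNAs and −0.31 to 0.08 for that of Malat1 and Neat1. Scaling to TPM, which sets the summed FPKM of all libraries equal, moved the structural mean to 1.14 and Malat1 to −0.27, and turned the medians of the signal recognition particle and receptor genes (0.02) and of RNA polymerase III (0.07) positive. HFD 1 had the lowest sum (576334) and listed mitochondrial genes at 0, so this scaling raised its other genes most. The part of those zeros in the shifts was not tested. Quantile normalization turned the median of the ventricular cardiomyocyte markers from −0.24 to 0.06.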

Other observations

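The ratio of the highest to the lowest library had a median of 1.99 over 25 other long noncoding RNAs, beside 10.9 over the 5 structural RNAs. Of these 25, 14 were higher and 11 lower on HFD (median log2 fold change 0.06), and 0 passed limma's adjusted threshold. H19, the imprinted RNA next to Igf2, measured 46.5, 10.0 and 61.8 FPKM in the NC libraries, compared with 6.29, 2.89 and 36.1 FPKM on HFD (log2 fold change −1.66, SE 0.74). Rian, of the imprinted Dlk1 and Meg3 locus, measured 25.2, 8.06 and 16.9 FPKM in the NC libraries, compared with 3.99, 8.82 and 10.8 FPKM on HFD (−0.96, SE 0.39). Both overlapped between the diets. Snhg5, a host gene of small nucleolar RNAs, had every HFD library (6.52, 5.19 and 8.80 FPKM) above every NC library (4.50, 5.01 and 4.08 FPKM), with a log2 fold change of 0.48 (SE 0.24). It was the 1 gene of these 25 without overlap of the diets. Of all 11456 tested genes, 372 (3.25%) had every HFD library above every NC library.

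Replication-dependent histone genes have mRNAs that typically end in a stem-loop in place of a poly(A) tail. Whether their mRNAs carried a tail in these hearts was not tested, so they do not stand for RNAs without one. Of 21 listed genes 20 had values and 8 were tested, and the others had means under 1 FPKM. The summed level of the 20 was between 186 and 250 FPKM, lowest in HFD 3, where each structural RNA was highest. Hist1h2bc alone made up 87.3 to 118 FPKM of it, and Hist2h2be and Hist3h2a were highest in HFD 3. Of the 8 tested genes 3 were higher and 5 lower on HFD (median −0.20). The 3 with the smallest p were Hist1h1c (−0.33), Hist1h4h (−0.32) and Hist2h2aa1 (−0.24). Of 24 other small structural RNAs listed 7 were in the table and 2 were tested. Scarna2 measured 0.530, 0.692 and 4.10 FPKM in the NC libraries, compared with 0.516, 1.98 and 3.67 FPKM on HFD, and Scarna10 reached 4.99 FPKM in HFD 3 and was listed at 0 in HFD 2. Rn7s6, 98.6% identical to 7SL over 214 bases, was below 1 FPKM in all 6 libraries and was not tested.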
